A study of Mus musculus with 6 samples.

Results

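Mitochondrial fatty acid beta-oxidation was followed here through 10 genes, taken as every probe of the array whose platform symbol, or a synonym of it, names Cpt1a, Cpt2, Slc25a20, Acadvl, Acadl, Acadm, Hadha, Hadhb, Eci1 or Etfdh. The rule found 21 probes for these 10 genes, among 45281 probes and 19057 named genes on the array. RNA came from livers of newborn mice of a mixed 129 and C57Bl/6 background. Of the 6 samples, 3 were wild type (WT) and 3 carried a knockout of Igf2. This gene encodes the fetal growth hormone insulin-like growth factor 2. The sample titles do not give the number of pups in each. Each sample was hybridised to 1 Illumina expression BeadChip array. Neither the deleted segment of Igf2, the parent that passed on the allele nor the litters of the pups are stated, and a p-value therefore covers the scatter among these 6 samples, part of which may be technical.

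Beta-oxidation breaks long-chain fatty acids down inside mitochondria. Long acyl chains cross the inner membrane bound to carnitine, and each turn of the cycle then runs through a dehydrogenase, a hydratase, a second dehydrogenase and a thiolase, releasing acetyl-CoA and passing electrons to the respiratory chain. The liver turns this pathway up around birth, when milk fat replaces placental glucose, and uses its acetyl-CoA for ketone bodies. PPAR alpha, encoded by Ppara, is a well known activator of these genes in liver.

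In the knockout, 8 of the 9 members with a probe above background were lower and 0 were higher (limma, adjusted p under 0.05 over all genes), where 8.49% of the 11346 genes tested were lower and 8.23% higher. Eci1 and Acadl fell most, to 45.8% and 47.0% of WT, and the other 6 fell to between 60.3% and 76.1%. The ninth, Hadha, was at 80.3% of WT (adjusted p = 0.107). For all 9 the groups were apart, with every knockout array under every WT array, a pattern that 18.3% of all genes tested showed in this direction. The median log2 difference of the 9 members was -0.49, beside 0.02 over all genes tested. These 9 are not the full 10, since Cpt1a had no probe above background. In RNA of a whole organ, fewer cells of a type and less RNA per cell cannot be told apart.

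**Figure D1:**
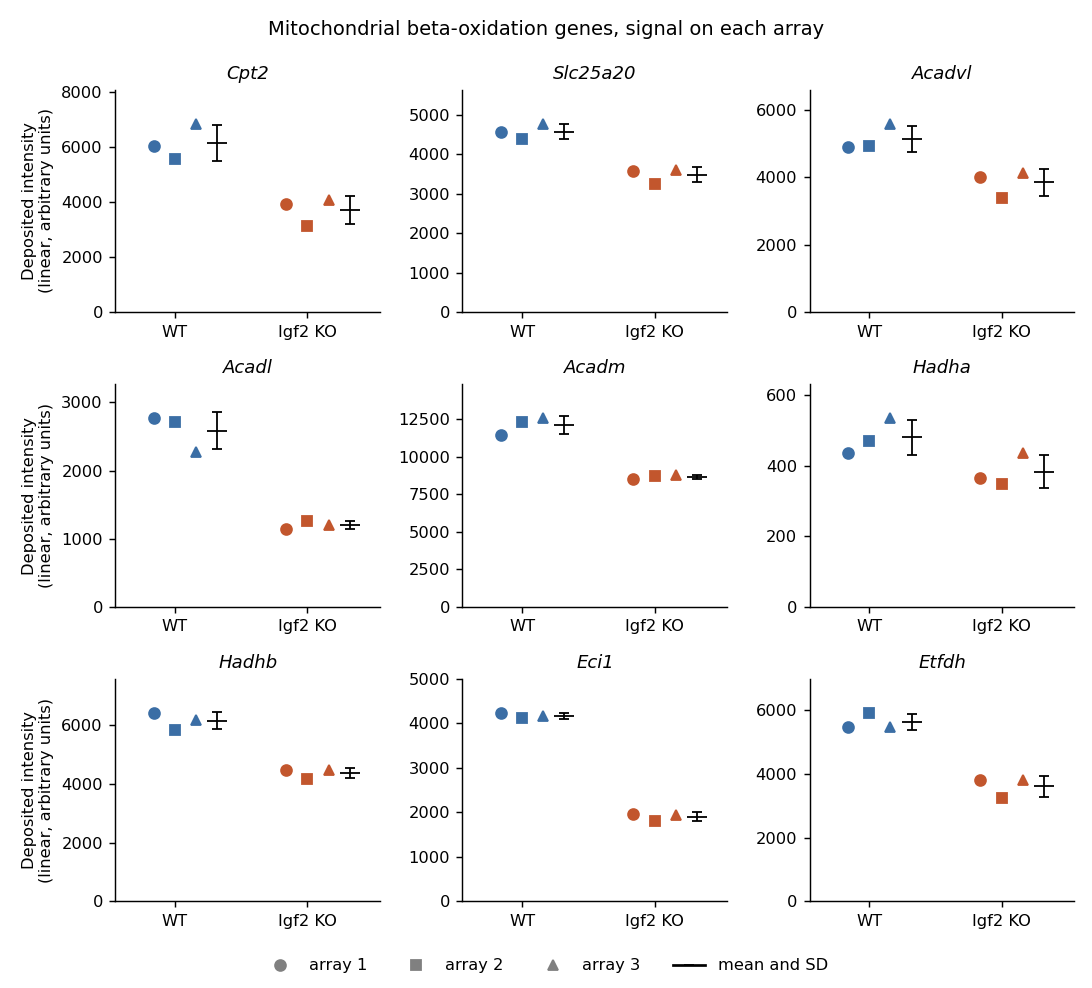
Deposited linear intensity (arbitrary units, axes from 0) of the 9 measured members on each array, with WT in blue, Igf2 knockout in orange, marker shape for the array number, and mean and SD in black. In every panel the 3 knockout arrays lie below the 3 WT arrays, and relative to the WT level the gap is widest for Eci1 and Acadl.

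Igf2 itself had a signal of 19805, 19195 and 18656 on the WT arrays and of 9337, 11866 and 9676 on the knockout arrays, which is lower with signal remaining. Its log2 difference was -0.91 ± 0.11 (SE, adjusted p = 0.0022). Between 46.3% and 49.9% of probes per array had a detection p under 0.05. The liver label held, with 13 of 13 hepatocyte markers detected on every array and a summed signal of 186938 to 191971 in WT and 181473 to 185132 in the knockout. Knockout arrays 1 and 2 stood apart. All 11 measured lung epithelium markers were detected on them, and the summed signal of these markers was 9175 and 23996, against 650 to 751 on the WT arrays and 704 on knockout array 3. Knockout array 3 had traces too. Sftpc, a surfactant protein, read 66.4 there against 1.6 to 10.7 in WT, and Scgb1a1, a secretory protein of the airways, 42.9 against -2.6 to 8.1, while Sftpd was lower there (62.4 against 136.1 to 174.5), so that 5 lung markers were detected on it and 3 on each WT array. The signal of Xist, the RNA that coats the inactive X, was 1018 on the first WT array, 1984 and 1823 on the first 2 knockout arrays, and 4.1 to 17.9 on the others. The 3 Y-linked genes measured were detected on every array, those 3 included. Why the 3 arrays with high Xist held both signals was not tested. Of the Y-linked genes Kdm5d was called lower in the knockout (-0.71 ± 0.15, SE, limma adjusted p = 0.0199). Uty (-0.55, adjusted p = 0.0584) and Eif2s3y (-0.32, adjusted p = 0.284) did not pass. Among markers of tissues rich in fatty acid oxidation, Ucp1 of brown fat and Ckm of muscle were not above background on any array. The summed signal of 9 brown fat markers was 76.2 to 104.5 in WT and 368.2, 123.9 and 406.9 in the knockout (Cidea alone 36.5 to 70.4 in WT and 80.2 to 373.6 in the knockout), and that of 8 muscle markers 241.8 to 267.1 and 287.6 to 381.5. Of the 5 muscle markers tested 2 were higher in the knockout and 0 lower, beside 8.23% and 8.49% of all genes. Both were dim, Myl1 (1.37 ± 0.19 on the log2 scale, SE, limma adjusted p = 0.0039) and Actc1 (0.95 ± 0.20, adjusted p = 0.0202). Tnni2 (-0.42), Myh8 (-0.20) and Mylpf (-0.03) were not called. Exocrine pancreas markers summed to 276.1 to 371.6 in WT and to 1222, 2485 and 342.5 in the knockout. Reg1 alone read 6.5 to 13.8 in WT and 806, 2134.6 and 51.6 in the knockout. Cela1 was not called, and Cpa1, Cel, Ctrb1 and Cela2a were not above background on any array. Macrophage markers summed to 7883 to 10419 in WT and to 8051 to 8993 in the knockout. Red cell markers summed to 79737 to 80249 and to 81855 to 83988. Most of the red cell sum is the globin genes Hba-a1 and Hbb-bt. Apob of hepatocytes was called lower (-0.42 ± 0.08, SE, limma adjusted p = 0.0134). Slc4a1 of red cells (0.32 ± 0.08, adjusted p = 0.0392), Reg1 of pancreas, Cidea and Sftpc were called higher. Actc1, Reg1 and Sftpc were detected on 3 arrays each, and only their knockout signals took them past the detection filter. Their calls are therefore not support for a rise. No macrophage marker was called. The part of these other cells in the results was not tested.

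Because knockout arrays 1 and 2 held far more lung signal than array 3, each member was also read on knockout array 3 alone. All 9 of 9 measured members were below every WT array there. The share of all genes with this pattern on array 3 was not counted, so the 9 have no background beside them. Log2 differences from the WT mean were -1.09 to -0.13 on array 3, with a median of -0.47. Knockout array 1 had a median of -0.50 and knockout array 2 of -0.59. With array 3 as the only knockout array, assumed to vary like the WT arrays, 2 members were lower past the threshold, Eci1 (-1.09, adjusted p = 0.0273) and Acadl (-1.09, adjusted p = 0.0469), where 0.987% of all genes were. With the lung marker level as a covariate the same 2 passed, Eci1 at -1.07 (adjusted p = 0.0084) and Acadl at -1.11 (adjusted p = 0.015), beside 2.58% of all genes. Knockout array 2, with the highest lung signal, was the lowest knockout array for 7 of the 9 members, and array 3 was the highest for 7.

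The carnitine shuttle opens the pathway. Cpt1a encodes carnitine palmitoyltransferase 1A, the outer membrane enzyme that commits acyl groups to oxidation and the liver's main form. Neither of its 2 named probes was above background on any of the 6 arrays, with signals between -2.1 and 9.2, so these arrays give no level and no comparison for Cpt1a. A probe at background does not show that a transcript is missing, as the next gene illustrates. Slc25a20, the carrier that swaps acylcarnitine for carnitine across the inner membrane, had 1 probe at background on all arrays and another with a signal of 4557, 4391 and 4783 in WT and 3572, 3260 and 3609 in the knockout. The WT arrays were all higher, and the groups did not overlap. The difference was -0.39 ± 0.09 on the log2 scale (SE, n = 3 each, limma adjusted p = 0.023), or 76.1% of WT. The remaining probe of Slc25a20 gave a larger fall, -0.76 ± 0.11 (adjusted p = 0.0036 in the fit of single probes). Removing WT array 1 (adjusted p = 0.0703) or any single knockout array (0.0738, 0.066 and 0.0505 for arrays 1, 2 and 3) ended the call of the brighter probe.

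Cpt2, the inner membrane enzyme that returns the acyl group to coenzyme A, was measured by 3 probes. Its brightest probe read 6059, 5566 and 6867 in WT and 3948, 3121 and 4094 in the knockout. Every knockout array was below every WT array, and knockout array 2 was the lowest. Cpt2 fell by 0.73 ± 0.13 on the log2 scale, to 60.3% of WT (SE, n = 3 each, limma adjusted p = 0.0109). The other 2 probes fell by 0.82 ± 0.13 and 0.84 ± 0.13.

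Acyl-CoA dehydrogenases catalyse the first step of each turn and divide the substrates by chain length. Acadvl encodes the very-long-chain enzyme, which sits at the inner membrane. Its brighter probe read 4896, 4944 and 5598 in WT and 4023, 3397 and 4140 in the knockout, without overlap. The fall was 25.2%, at -0.42 ± 0.11 on the log2 scale (SE, n = 3 each, limma adjusted p = 0.0394), and the second probe gave -0.40 ± 0.09 (adjusted p = 0.022 among single probes). This was the weakest call among the 8. It was lost without any 1 of the 6 arrays (adjusted p between 0.0569 and 0.095).

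Acadl, the long-chain dehydrogenase, read 2769, 2712 and 2276 in WT and 1145, 1258 and 1203 in the knockout. The knockout values sat close together, and the lowest WT array was well above them. The log2 difference of Acadl was -1.09 ± 0.10 (SE, n = 3 each, limma adjusted p = 0.0009). Its other 2 probes were also lower without overlap but by less, -0.65 ± 0.10 (adjusted p = 0.0044) and -0.49 ± 0.14 (adjusted p = 0.0547). The last of these was dim, with a signal of 30.3 to 38 in WT and 11.5 to 25.2 in the knockout, a range in which the offset of 16 used before taking log2 understates a change.

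Acadm encodes the medium-chain dehydrogenase, whose loss in people is a common disorder of fatty acid oxidation. Its only probe read 11445, 12351 and 12582 in WT and 8538, 8721 and 8761 in the knockout. The knockout arrays differed little among themselves and all lay below WT. Acadm fell by 0.48 ± 0.08 on the log2 scale, to 71.6% of WT (SE, n = 3 each, limma adjusted p = 0.0085). Thus all 3 acyl-CoA dehydrogenases among the members were lower. The 95% interval of Acadl (-1.33 to -0.85) did not reach those of Acadvl (-0.67 to -0.16) or Acadm (-0.67 to -0.29). The difference between the genes was not tested, and the 3 Acadl probes did not give the same size.

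Hadha and Hadhb encode the alpha and beta subunits of the mitochondrial trifunctional protein, which carries out the remaining 3 steps on long chains. Both genes lie head to head on chromosome 5, and their RefSeq starts are 273 bases apart, so that 228 bases of the 250 before either start are shared. Both upstream windows are shown because the genes share a promoter region and can be read side by side in the data. Sequences are from RefSeq on GRCm38.p6, 5′ to 3′ on the strand of the gene, and capitals mark the GC box GGGCGG or its reverse complement.
Hadhb upstream window, chr5:30155003-30155252, plus strand: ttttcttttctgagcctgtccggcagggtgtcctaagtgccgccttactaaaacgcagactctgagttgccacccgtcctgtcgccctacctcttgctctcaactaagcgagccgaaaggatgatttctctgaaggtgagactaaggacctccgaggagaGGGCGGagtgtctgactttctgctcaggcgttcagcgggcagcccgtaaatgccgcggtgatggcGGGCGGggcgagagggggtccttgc
Hadha upstream window, chr5:30154981-30155230, minus strand: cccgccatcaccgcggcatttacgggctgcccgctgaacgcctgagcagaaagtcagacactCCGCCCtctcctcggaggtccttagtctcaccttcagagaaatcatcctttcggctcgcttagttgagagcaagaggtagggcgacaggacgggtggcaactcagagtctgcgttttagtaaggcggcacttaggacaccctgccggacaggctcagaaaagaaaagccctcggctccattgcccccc
The GC box of the Hadha window is the upstream one of the Hadhb window, read from the other strand.

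Hadhb read 6415, 5848 and 6172 in WT and 4456, 4158 and 4467 in the knockout. No knockout array reached the WT range. Hadhb fell by 0.49 ± 0.09 on the log2 scale, to 71.0% of WT (SE, n = 3 each, limma adjusted p = 0.0087). The only named probe of Hadha was dimmer and read 437.6, 469.2 and 535.1 in WT and 366.1, 348.3 and 435.5 in the knockout. The highest knockout array and the lowest WT array were almost equal. The difference of -0.32 ± 0.12 (adjusted p = 0.107) did not pass, and its 95% interval, -0.59 to -0.04, holds the value of Hadhb. On knockout array 3 alone the difference of Hadha was -0.13. These data therefore do not show whether the 2 subunits differed in response.

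Eci1, enoyl-CoA delta isomerase 1, moves the double bond of unsaturated fatty acids so that they can pass through the cycle. Its only probe read 4238, 4116 and 4165 in WT and 1970, 1799 and 1949 in the knockout. The 2 groups were each tight and far apart. Eci1 fell by 1.13 ± 0.08 on the log2 scale (SE, n = 3 each, limma adjusted p = 0.00031), rank 48 by p among all genes tested. Its call held in all 18 alternative settings, with log2 differences of -1.15 to -1.07 and adjusted p up to 0.0273.

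Etfdh encodes the flavoprotein dehydrogenase that hands electrons from the acyl-CoA dehydrogenases on to ubiquinone. Its brightest probe read 5489, 5917 and 5479 in WT and 3806, 3234 and 3810 in the knockout. Again the groups did not overlap, with knockout array 2 lowest. Etfdh fell by 0.64 ± 0.10 on the log2 scale, to 64.2% of WT (SE, n = 3 each, limma adjusted p = 0.0057). Of its other 3 probes, 2 fell by 0.57 ± 0.14 and 0.71 ± 0.13. The fourth, ILMN_2580585, overlapped between the groups, with signals of 164, 232.2 and 68.6 in WT and 119.7, 81.4 and 185.5 in the knockout (-0.17 ± 0.40, adjusted p = 0.806). Averaging the 4 probes gave -0.52 (adjusted p = 0.0518).

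Among the other settings tried, the number of members lower and the share of all genes lower were as follows. With 1 array left out, 6 members were lower without WT array 1 (4.76% of genes), 7 without WT array 2 (6.22%) or 3 (8.17%), and 6 without knockout array 1 (4.04%), 2 (5.66%) or 3 (5.8%). With a covariate from the sex-linked genes 6 were lower (5.16%), and with the array number as a block 7 (6.13%). Under other filters and variance models, 7 were lower with no background correction (7.82%), 7 with no filter on detection (4.69%) and 7 with the mean of a gene's probes (9.26%). The count stayed at 8 with an offset of 50 (9.25%), detection required on all arrays (9.68%), a trended robust variance (9.69%) or array weights (12.6%). The members' share was above that of all genes in each setting, and no member was higher in any. These are refits of the same arrays, and the members were chosen with earlier results of these data known. The counts are therefore not independent support.

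Over all members 18 of the 21 probes were above background. In the fit of single probes 15 of these 18 were lower and 0 higher, beside 9.27% lower and 6.72% higher among the 21958 probes tested. Without overlap between the groups 17 were lower, a pattern counted over all genes (18.3%) but not over all probes. Probes of 1 gene share its transcript and are not replicates of a condition.

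**Figure D2:**
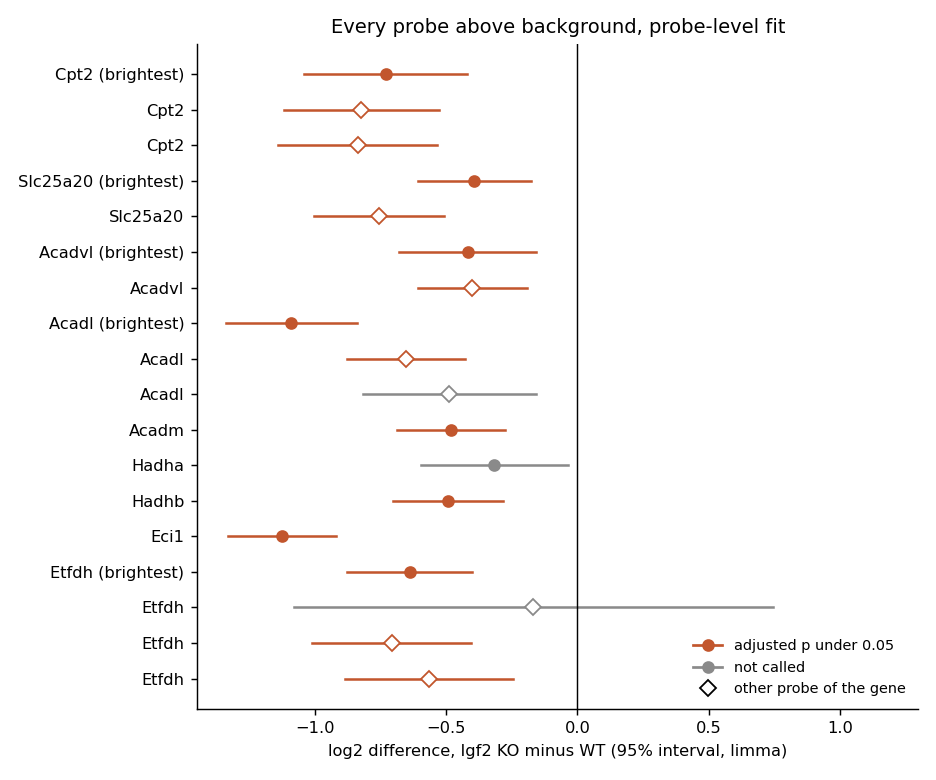
Log2 difference, Igf2 knockout minus WT, with its 95% interval for each of the 18 probes above background, from a limma fit of single probes. Filled circles are the brightest probe of a gene, open diamonds its other probes, orange passed the threshold and grey did not. All 18 differences lie below 0, and the 3 grey ones belong to Acadl, Hadha and Etfdh.

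The upstream windows of the 2 genes that fell most are given for comparison with those of Hadha and Hadhb, with the same motif in capitals.
Eci1 upstream window, chr17:24426433-24426682, plus strand: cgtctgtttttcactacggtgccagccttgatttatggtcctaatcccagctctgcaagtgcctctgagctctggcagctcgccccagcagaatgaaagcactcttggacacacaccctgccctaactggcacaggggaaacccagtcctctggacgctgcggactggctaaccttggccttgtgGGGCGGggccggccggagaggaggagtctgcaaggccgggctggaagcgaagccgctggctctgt
Acadl upstream window, chr1:66863310-66863559, minus strand: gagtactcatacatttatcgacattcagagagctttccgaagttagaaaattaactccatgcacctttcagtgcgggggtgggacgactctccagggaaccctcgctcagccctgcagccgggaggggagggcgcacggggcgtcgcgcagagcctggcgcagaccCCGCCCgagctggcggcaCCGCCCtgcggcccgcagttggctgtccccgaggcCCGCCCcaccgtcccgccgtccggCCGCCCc
All 10 members had a window in the RefSeq table. GGGCGG, on either strand, was present in the windows of 7 members (Acadl, Cpt1a, Cpt2, Eci1, Hadha, Hadhb and Slc25a20), and in 35.4% of 27025 genes. The nuclear receptor half-site AGGTCA, on either strand, was present in those of Acadm, Acadvl and Cpt1a, and in 15.8% of genes. The DR1 repeat bound by PPAR alpha with its partner, searched as AGGTCA, any base, AGGTCA, was in no member window and in 0.0407% of genes. Searched more loosely, as AGGNCA, any base, AGGNCA, it was in no member window and in 0.4% of genes. The motif CCAAT was found for Cpt1a and Etfdh, and in 37.5% of genes. TCAAGGTCA, CACGTG and TGACGTCA were in no member window, and in 0.422%, 6.86% and 1.77% of genes. The DR1 repeat and TCAAGGTCA, the ERR site, both contain AGGTCA. Letters that match are not binding sites, and a motif missing from 250 bases may lie elsewhere.

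Among 20 measured genes of the rest of mitochondrial beta-oxidation (25 listed), 6 fell and 1 rose, with a median log2 difference of -0.27 (4 fell without WT array 1 or knockout array 1 or 2). Over all genes tested 8.49% fell and 8.23% rose. Decr1, the dienoyl-CoA reductase for polyunsaturated chains, fell to 39.8% of WT (-1.33 ± 0.11, SE, adjusted p = 0.00056), and Hadh, the short-chain hydroxyacyl-CoA dehydrogenase, to 39.2% (-1.35 ± 0.13, adjusted p = 0.00084). Acaa2, a mitochondrial thiolase, fell to 52.0% (-0.94 ± 0.10, adjusted p = 0.0015). Decr1, Hadh and Acaa2 kept their calls on knockout array 3 alone and with the lung covariate. The propionyl-CoA carboxylase subunits, which serve chains of odd length, moved apart. Pcca fell (-0.64 ± 0.10, adjusted p = 0.0052), and Pccb rose (0.44 ± 0.08, adjusted p = 0.0133). Neither call held on knockout array 3 alone or with the lung covariate, and that of Pccb was also lost with the mean of its probes. Etfa and Ech1 also fell, by 0.30 ± 0.08 and 0.32 ± 0.09, calls lost without any 1 of the 6 arrays.

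Peroxisomes shorten very long chains with a separate set of enzymes. There 8 of 12 measured genes fell and 0 rose, beside 8.49% and 8.23% of all genes tested, with a list median of -0.63. Acaa1b, a peroxisomal thiolase whose probe may also bind the close paralog Acaa1a, fell from a signal of 13225, 11291 and 13291 in WT to 2366, 1819 and 2728 in the knockout (-2.46 ± 0.16, adjusted p = 0.0002). Decr2 fell to 56.1% of WT, Scp2 to 67.6% and Hacl1, which acts in alpha-oxidation, to 45.4%. On knockout array 3 alone 1 of the 12 was lower past the threshold, Acaa1b, and 2 were with the lung covariate. Of ketone body synthesis 3 genes were measured, and Bdh1, which makes 3-hydroxybutyrate, fell to 34.2% of WT (-1.55 ± 0.09, adjusted p = 0.00014), while Slc16a6 (0.29 ± 0.12, adjusted p = 0.127) and Acat1 (0.06 ± 0.14, adjusted p = 0.813) did not pass.

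Other mitochondrial genes did not show the same counts. Of all genes tested 8.49% fell and 8.23% rose, so 1 rise among 23 or 12 genes is near or below that share. Of 15 measured genes of the tricarboxylic acid cycle, which burns the acetyl-CoA, 4 rose and 1 fell, with a median of 0.08 (2 rose without WT array 1 and 1 without knockout array 1). Fh1, fumarase, rose to 1.93 times WT (0.95 ± 0.11, adjusted p = 0.0017), and Ogdh (0.47 ± 0.09), Sdhb (0.43 ± 0.09) and Idh3a (0.52 ± 0.15) rose less, while Suclg2 fell by 0.34 ± 0.09, a call that did not survive the removal of any WT array or of knockout array 1 or 3. The calls of Ogdh, Sdhb and Idh3a were also lost when knockout array 1 was removed, and those of Sdhb and Idh3a when WT array 1 was. Of 23 respiratory chain subunits 0 fell and 1 rose, Atp5k, a small subunit of ATP synthase (1.16 ± 0.10, adjusted p = 0.00066), and the median was 0.06. Of 12 porins, import proteins, chaperones and carriers of mitochondria 0 fell and 1 rose, Tomm40, a channel of the outer membrane (0.62 ± 0.08, adjusted p = 0.0033), with a median of 0.14. On knockout array 3 alone, and likewise with the lung covariate, Fh1 and Atp5k kept their calls as the only genes called in their lists, and Tomm40 lost its call (adjusted p up to 0.118). The difference between these lists and the members was not tested.

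**Figure D3:**
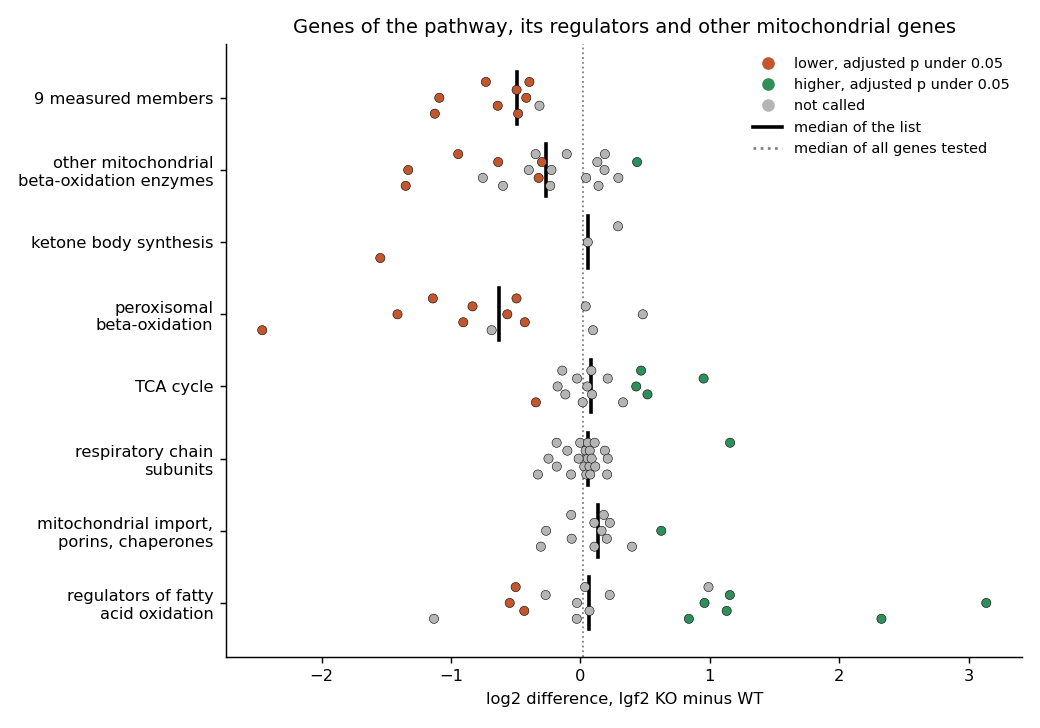
Log2 difference, Igf2 knockout minus WT, of each measured gene in the 9 measured members and 7 other lists (1 point a gene, orange lower, green higher, grey not past the threshold, black bar the list's median, dotted line the median of all genes tested). Medians of the mitochondrial and peroxisomal oxidation lists lie at -0.49, -0.27 and -0.63, and those of the other lists between 0.06 and 0.14.

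Of 17 measured regulators of fatty acid oxidation 6 rose and 3 fell, beside 8.23% and 8.49% of all genes tested. Here the coactivators and the enzymes differed in sign. Ppargc1a, which encodes PGC-1 alpha, a coactivator of mitochondrial and fasting genes, read 120.8, 274.6 and 82.7 in WT and 787.3, 819 and 718.6 in the knockout. All knockout arrays were higher, and the WT arrays were spread widely. Ppargc1a rose by 2.33 ± 0.35 on the log2 scale (SE, n = 3 each, limma adjusted p = 0.0049). Its relative Ppargc1b rose by 1.15 ± 0.16 (adjusted p = 0.0036), and Esrra, the nuclear receptor ERR alpha with which they act, by 0.84 ± 0.13 (adjusted p = 0.0063). Lpin1, a phosphatidate phosphatase that also acts with PGC-1 alpha, rose by 3.14 ± 0.50 (adjusted p = 0.0066). Acacb, which makes the malonyl-CoA that inhibits CPT1, and Pdk4, which inhibits pyruvate dehydrogenase, rose by 1.13 ± 0.19 and 0.96 ± 0.22. The call of Pdk4 was lost when either of WT arrays 1 and 2, or either of knockout arrays 1 and 3, was removed. On knockout array 3 alone none of these 6 rises kept its call, and with the lung covariate those of Ppargc1b and Acacb did. The nuclear receptor gene Esrrg was not called with all arrays (0.99 ± 0.31, adjusted p = 0.0667). Its signal was low, at 10.9, 21.3 and 18.2 in WT and 68.8, 22 and 73 in the knockout. The difference of Esrrg was 1.42 on knockout array 3 alone. With the lung covariate it was 1.62 and passed the threshold (limma adjusted p = 0.0395), and no regulator was lower there. Esrrg was named after its values were seen.

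The 3 regulators that fell were Nr2f2, an orphan nuclear receptor (-0.55 ± 0.10, adjusted p = 0.0088), Creb3l3, a liver factor of fasting lipid metabolism (-0.50 ± 0.10, adjusted p = 0.0166), and Ppara. Ppara, which was named after its values were seen, read 237.4, 305.8 and 230.8 in WT and 180.9, 194 and 181.6 in the knockout. The groups did not overlap, and WT array 2 was the highest. Its difference of -0.43 ± 0.12 passed narrowly (adjusted p = 0.0454), and its call was lost in 11 of the alternatives, among them those that removed WT array 1 or 2 or any single knockout array. Without knockout array 1 the call of Creb3l3 was lost too, and 1 regulator was lower. Rxra, the partner of PPAR alpha (-0.27 ± 0.13, adjusted p = 0.188), Hnf4a (0.23 ± 0.10, adjusted p = 0.168) and Fgf21, a hormone gene under PPAR alpha (-1.13 ± 0.60, adjusted p = 0.228), did not pass. The WT signals of Fgf21 ranged from 266.7 to 1887.

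The members followed 1 profile over the 6 arrays, which in the main is the step between the genotypes. Their mean log2 deviation was 0.30, 0.29 and 0.35 on the WT arrays and -0.29, -0.41 and -0.24 on the knockout arrays. Pearson correlation of a member with the mean of the other members, over 6 arrays in 2 separate groups, ran from 0.838 for Hadha to 0.99 for Eci1. Outside the members, the genes with the closest profile by this measure were Epb41l1, Pced1a, Prkd3, Tlcd2 and Acaa1b, all at 0.998 or 0.999. They fell by 0.78, 0.66, 0.62, 1.38 and 2.46 on the log2 scale. With 6 arrays in 2 groups, a gene needs only a clear step between the genotypes to correlate this highly.

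**Figure D4:**
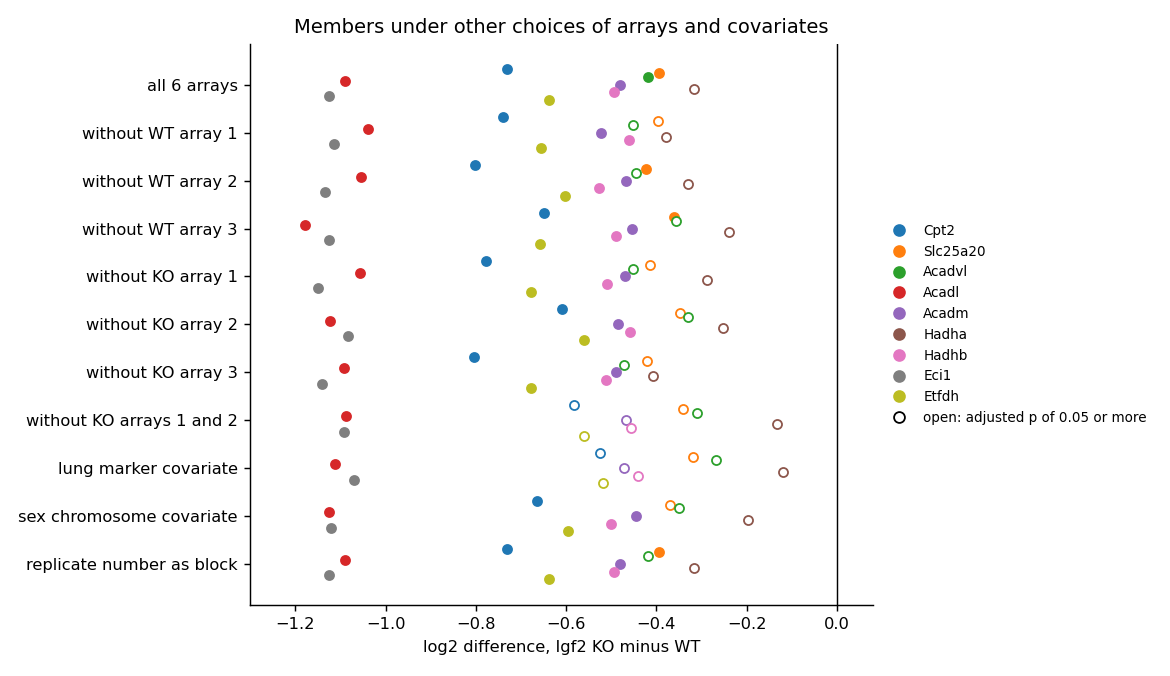
Log2 difference, Igf2 knockout minus WT, of each measured member (1 colour a gene) with all 6 arrays, with arrays left out, and with covariates or a block in the fit. Filled points passed an adjusted p of 0.05 and open points did not. All points lie below 0, Eci1 and Acadl are filled in every row, and Hadha is open in every row.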

How the data were processed

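Total RNA of liver was converted to biotin-cRNA for Illumina BeadChips, per the labels' protocols, and the 6 arrays were grouped by genotype. The authors deposited probe intensity on a linear scale, and a table with a detection p-value for each probe and array. The deposited intensities are already background-subtracted (25.0% to 25.1% below 0) and share 1 distribution across arrays. The software is not given in the sources used here. Both tables hold the same intensities, and rows were joined by all 6 of them. The probe ID differed between the tables in 9535 rows, among them rows of Acadl, Cpt2, Etfdh and Slc25a20. There the ID of the table without detection p-values was used, and for these members both IDs name the same gene. A RefSeq gene table updated the symbols.

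limma 3.58.1 in R 4.3.3 was used: neqc (offset 16, log2), a filter that kept the 21958 probes detected (p under 0.05) on 3 or more arrays, the brightest such probe for each of 11346 genes, then two-sided lmFit and eBayes tests adjusted across all genes by Benjamini-Hochberg. The fit was tested on simulated data. Each fold is relative to WT, and intensity scales differ between probes. Same-numbered arrays did not deviate together (correlations -0.0044, 0.028 and 0.0152). Named genes follow a rule: all members, and in each other list up to 4 called genes with the smallest p in the main direction and 2 the other way (others are given in counts of 5 or fewer, or as regulators of the members), and 5 genes by profile. The members and lists were chosen with earlier results of these data known.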

Additional observations from a re-analysis of the deposited data

How the results depend on the processing

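Of 18 alternatives, 16 left 6 to 8 members lower (6 to 7 with 1 array left out), and all had 0 higher. The exceptions, with 2 members lower each (Eci1 and Acadl), were the lung covariate and leaving out knockout arrays 1 and 2 together. No member changed sign in any alternative. The count of all genes changed, 1897, was 849 to 1880 with 1 array left out (849 without knockout array 1 and 989 without WT array 1), 228 without knockout arrays 1 and 2, 592 with the lung covariate, 1156 with the sex covariate, 3025 with array weights and 3511 when 21958 single probes were tested. Fewer arrays and more model terms leave fewer degrees of freedom, but the causes of these changes in count were not tested. Array numbers are shared between the groups, and the labels do not state whether same-numbered samples were paired. With the replicate block 7 members were lower and 1323 genes changed, and Acadvl lost its call (adjusted p = 0.0533). Acadvl lost it in 12 alternatives in all, Slc25a20 in 7, Etfdh in 4, Cpt2, Acadm and Hadhb in 2 each and Acadl in 1, while Hadha did not pass in any. Other probes of Acadl and Etfdh decided 1 and 2 of these. The number of arrays limits the precision, and at low signal the offset shrinks differences.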
